A study of Mus musculus with 15 samples.

Results

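The 36 genes described here encode factors that repress retroelements and build heterochromatin. They were chosen by name, as KAP1 and SETDB1, the SUV39 and G9a enzymes of H3K9 methylation, HP1 proteins, HUSH and MORC factors, CAF-1 and ASF1 chaperones, SIN3, HDAC and CoREST repressors, ATRX and DAXX, SUMO factors and 4 further repressors. The rule uses names and no measured values, but the members were chosen with earlier results of these data known. All 36 were found among the 26061 genes of the table, and all 36 were among the 19490 genes that passed the filter on low values (above the value that stands for 0 reads in at least 5 of 15 libraries). The study depleted the 5-methylcytosine oxidases TET1 or TET2 in E14 cells, a mouse embryonic stem cell (ESC) line of 129/Ola background, and sequenced total RNA freed of rRNA. The 15 libraries fell into 3 groups of 5. Cells of the shScr group carried a hairpin RNA without a target, those of the shTet1 group a hairpin against Tet1 and those of the shTet2 group a hairpin against Tet2. All groups were transduced with lentiviral pLKO.1 vectors, grown without feeder cells in serum with LIF, and harvested once puromycin had selected for 3 days. The labels name 1 cell line and 1 hairpin label per group, and do not say whether the 5 replicates were separate transductions. The p-values therefore measure the spread between these libraries only.

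Retroelements are copied through RNA and are held silent in ESCs largely by histone methylation and deacetylation. KRAB zinc finger proteins bind the DNA of particular elements and recruit KAP1 (Trim28), a scaffold that brings in the H3K9 methyltransferase SETDB1. HP1 proteins bind the methylated histone, SUV39 enzymes spread the mark at satellite repeats, and G9a and GLP write the dimethylated form. HUSH and MORC proteins compact the marked chromatin, CAF-1 deposits new histones behind the replication fork, and SIN3, NuRD and CoREST complexes remove acetyl groups. TET1 has been found in complexes with SIN3A, which places some of these factors beside the depleted enzymes.

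TET enzymes act on methylated CpG, so the CpG content of the members' promoters is given first. RefSeq promoter windows of GRCm38.p6, from 250 bases before to 50 bases after the start, were matched by symbol to 33 of the 36 members. Hdac1, Pias4 and Rif1 had no entry. Where a gene had several windows, the one richest in CpG was counted. The members' windows of 300 bases held 11 to 53 CpG with a median of 31, against a median of 8 over the 27025 genes with a window. All 33 matched members had at least 10 CpG, as did 45.8% of all genes. Zfp809 and Atrx had the fewest. The 250 bases upstream of 3 members that passed the paired test below are shown 5′ to 3′ on the gene's strand, with each CpG in capitals. They contrast Zfp809, with 11 CpG in that stretch (chr9:22225453-22225702, plus strand), with Mphosph8, with 19 (chr14:56667998-56668247, plus strand), and Suv39h2, with 27 (chr2:3474987-3475236, minus strand).
Zfp809: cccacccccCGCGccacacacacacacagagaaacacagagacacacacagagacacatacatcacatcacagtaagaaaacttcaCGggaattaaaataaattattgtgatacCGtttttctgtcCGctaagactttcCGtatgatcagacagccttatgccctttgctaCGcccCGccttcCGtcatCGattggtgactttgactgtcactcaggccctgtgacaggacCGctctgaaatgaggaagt
Mphosph8: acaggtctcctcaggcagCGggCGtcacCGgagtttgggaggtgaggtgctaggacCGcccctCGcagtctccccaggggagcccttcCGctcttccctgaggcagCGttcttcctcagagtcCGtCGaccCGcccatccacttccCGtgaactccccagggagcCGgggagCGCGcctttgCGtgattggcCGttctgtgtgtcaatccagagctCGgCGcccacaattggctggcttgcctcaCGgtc
Suv39h2: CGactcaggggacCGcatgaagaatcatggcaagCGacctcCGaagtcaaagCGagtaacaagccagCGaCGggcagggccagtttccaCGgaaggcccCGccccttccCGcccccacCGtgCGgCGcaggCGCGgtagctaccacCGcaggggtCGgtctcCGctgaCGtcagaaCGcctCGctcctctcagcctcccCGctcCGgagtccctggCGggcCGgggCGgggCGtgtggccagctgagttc

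One member, YY1, is itself a DNA-binding protein, and its core recognition letters AANATGGC were searched on both strands of the windows. They were present in at least 1 window of 9 of the 33 matched members (27.3%) and of 6.96% of all genes with a window. The match is a description of letters, not of a bound site. In Zfp809 and Suv39h2 the first base of the match lay 38 bases into the transcribed part, in opposite orientations. Both are shown because these genes had the lowest p between shTet2 and shTet1 among the 36, with the match in capitals within 30 bases (chr9:22225723-22225752, plus strand and chr2:3474937-3474966, minus strand, GRCm38.p6).
Zfp809: agaggaggtctgagcctGCCATCTTgggtc
Suv39h2: ttgaatgaaagctccgcAAGATGGCggcgg

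The targeted genes checked the labels. Values are the authors' deposited variance-stabilised values, close to log2 for well-covered genes, and are listed in the order of replicates 1 to 5 wherever 5 values are given. Tet1 was at 14.04, 14.25, 13.68, 14.04 and 13.92 for shScr, 12.03, 12.18, 12.41, 12.18 and 11.93 for shTet1 and 13.28, 13.81, 14.62, 13.61 and 13.73 for shTet2. The shTet1 libraries were all below the others, with a difference from shScr of −1.84 ± 0.19 (SE, adjusted p = 0.000228). Tet2 was at 13.15, 13.24, 13.26, 13.52 and 13.45 for shScr, 13.10, 12.72, 13.27, 13.02 and 13.17 for shTet1 and 11.32, 11.12, 11.61, 11.48 and 11.59 for shTet2, and the shTet2 libraries were all below the others (−1.90 ± 0.13 (SE, adjusted p = 3.67e-07)). Adjusted p-values are from limma, corrected over the 19490 genes. Gene reads recovered per library ranged from 15258291 to 35432425. Of 8 ESC markers, 8 were found, with a summed level of 2872 to 4107 RPM (gene reads scaled to library depth), whereas 6 fibroblast markers summed to 2.96 to 10.3 and Lum was at 0 in all 15 libraries. In every group, replicates 1 and 2 stood apart from replicates 3 to 5 along the main axis of within-group variation, which held 37.9% of that variance. The labels give no batch, and of the QIAzol and Quick-RNA extractions they name, they do not assign either to a library. Genes of olfactory and vomeronasal receptors, silent in most tissues, took 54.5 to 64.7 RPM in 4 libraries (shScr replicate 4, shTet1 replicates 3 and 4, shTet2 replicate 4) and 11.1 to 26.5 in the other 11. The part of these features in the results was not tested beyond the values given beside them.

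Most of the silencers were abundant in control cells. In RPKM (RPM per kb of exon), computed here from the recovered reads, the median member was at 35.3 in shScr, against 1.80 over all genes tested. Of the 36, 35 were above the median gene and 17 were in the top 10%. Trim28 had the highest level (341 ± 107, SD, n = 5), and the RIF1 gene, whose product controls replication timing and represses endogenous retroviruses, followed at 317 ± 42.1. Hells, a chromatin remodeller needed for DNA methylation of repeats, was at 232 ± 25.7, Cbx5, which encodes HP1α, at 130 ± 15.2 and Morc3 at 123 ± 11.8. The spreads of Trim28 and Rif1 overlapped, as did those of Cbx5 and Morc3. The H3K9 methyltransferases lay lower. Setdb1 was at 30.9 ± 4.86, Ehmt2 (G9a) at 21.3 ± 6.46, Ehmt1 (GLP) at 18.9 ± 2.36, Suv39h2 at 18.0 ± 1.73 and Suv39h1 at 4.38 ± 1.42. The values of Setdb1 did not overlap those of Suv39h2, and those of Suv39h2 did not overlap those of Suv39h1. The lowest member was Wiz, the zinc finger partner of G9a and GLP, at 0.747 ± 0.302.

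**Figure D1:**
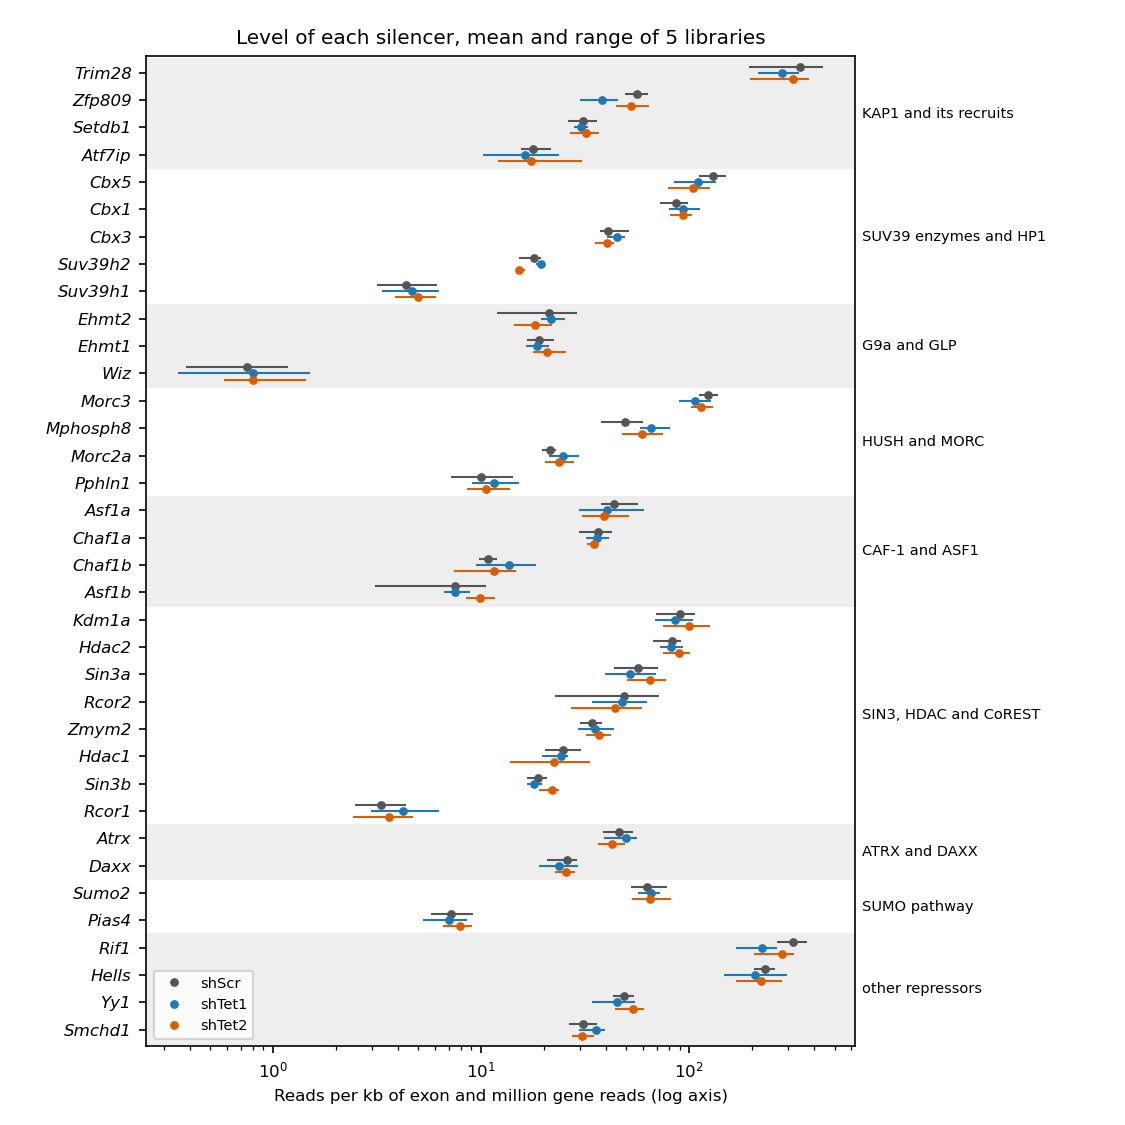
Level of each of the 36 silencers in shScr (grey), shTet1 (blue) and shTet2 (orange), in RPKM on a log axis, as mean (point) and range (line) of 5 libraries, grouped by role. Members spanned 0.747 (Wiz) to 341 (Trim28) in shScr, and for most of them the ranges of the groups overlapped.

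Paralogues within a family were used unequally. Among the HP1 genes the order in shScr was Cbx5, Cbx1 (86.5 ± 11.1) and Cbx3 (40.7 ± 6.19). Among the deacetylases Hdac2 (82.6 ± 9.43) was above Hdac1 (24.7 ± 3.73), and among the CoREST scaffolds Rcor2 (48.9 ± 19.1) was above Rcor1 (3.31 ± 0.772). Sin3a (57.1 ± 12.1) was above Sin3b (18.8 ± 1.76), and Asf1a (43.5 ± 7.93) above Asf1b (7.51 ± 2.97). Near-identical copies elsewhere in the genome make some of these levels uncertain, since the authors kept reads that fitted several places at a single one. Of the 31-base stretches in their exons, 57.3% for Sumo2, 48.8% for Cbx3 and 48.6% for Hdac1 occur again in the genome. Whether counting used strand is not given in the sources used here, and exons on the opposite strand cover 22.7% of the exonic bases of Wiz, 11.3% of Suv39h1, 10.7% of Mphosph8 and 9.98% of Suv39h2.

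In shTet1 against shScr, none of the 36 silencers passed an adjusted p of 0.05 when libraries were not paired, and 0.0718% of all genes tested did (14 genes). The largest differences were a lower level of Zfp809 and Rif1 and a higher level of Mphosph8. At an unadjusted p under 0.05 there were 2 members, Zfp809 and Rif1, both lower, or 5.56% of the list beside 11.8% of all genes. The numbers of the shTet1 and shScr libraries met the rule for pairing, a correlation above 0.1 between same-numbered libraries. Correlations between libraries of different numbers were not computed, so the rule cannot tell pairing from the split of replicates 1 and 2 against 3 to 5. With the replicate number as a block 3 members passed, Zfp809 and Rif1 lower and Mphosph8 higher, which is 8.33% of the list, beside 4.8% of all genes. This paired fit took in the libraries of all groups, so it also used shTet2, whose numbers did not meet the rule with shScr. With a term for the split of replicates 1 and 2 against 3 to 5 instead of the block, the adjusted p of Zfp809 in limma was 0.0275. Rif1 and Mphosph8 did not pass with that term. No share over all genes is given for this setting. The median difference over the 36 was −0.05, beside 0.01 over all genes. It was −0.11 in replicates 1 and 2 and −0.00332 in replicates 3 to 5. The 95% interval of the difference lay within 1 on the log2 scale for all 36 members, from a lowest bound of −0.95 to a highest of 0.76, and within 0.5 for 20 of them. In bulk RNA, a change in the share of cells that express a gene and a change per cell cannot be told apart.

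**Figure D2:**
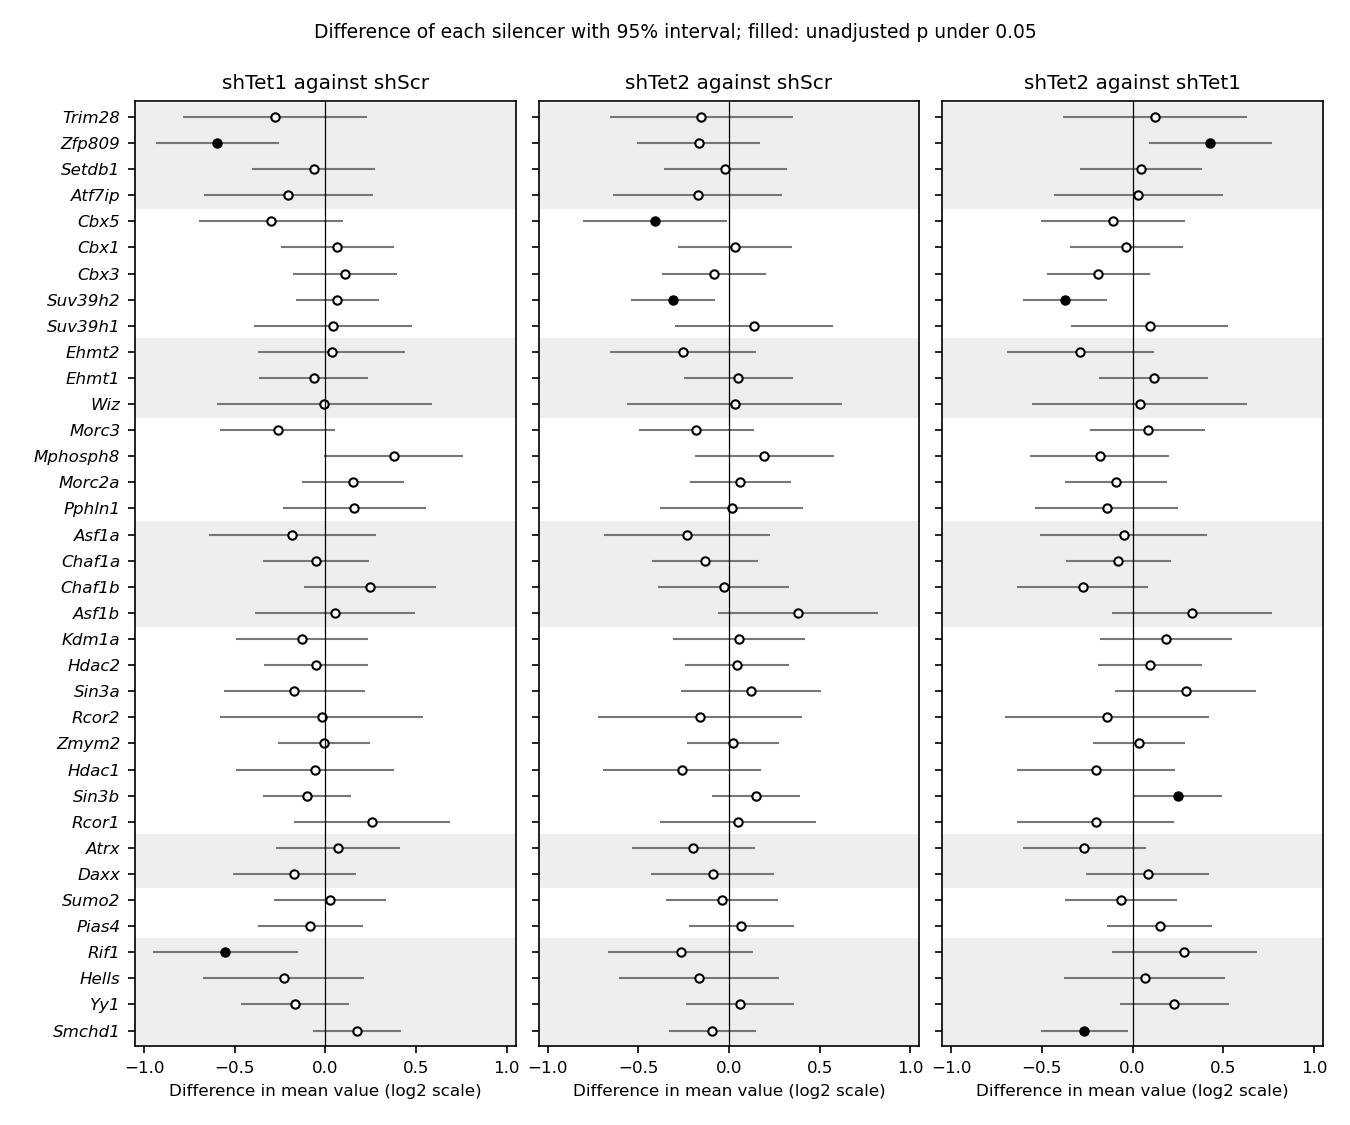
Difference in mean deposited value (log2 scale) of each of the 36 silencers with its 95% interval from the fit without pairing, for each hairpin against shScr and for the hairpins against each other. Filled points have an unadjusted p under 0.05, which 2, 2 and 4 of 36 members reached, and none passed after adjustment over all genes.

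Among the KAP1 group, Zfp809 encodes the KRAB zinc finger protein that binds the primer binding site of murine leukaemia viruses and related proviruses (chr9:22030274-22047641, plus strand of mm9). Zfp809 was at 10.62, 10.56, 10.93, 10.66 and 10.66 for shScr, 9.68, 9.73, 10.39, 10.31 and 10.34 for shTet1 and 10.24, 10.46, 10.90, 10.44 and 10.56 for shTet2. All 5 shTet1 libraries were below all 5 shScr libraries, which held for this 1 member (2.78% of the list) and for 2.62% of all genes, and the gap was widest in replicates 1 and 2. The difference was −0.60 ± 0.16 (SE, adjusted p = 0.133, exact permutation p = 0.00794), a fold of 0.662, and 0.00794 is the smallest p that 5 against 5 libraries can give. With same-numbered libraries paired, the adjusted p was 0.00819, and it was 0.00539 to 0.0455 when each library was left out in turn from the paired fit. Over 21 other settings without pairing it ranged from 0.0275 to 0.358. Each of the 5 pairs was lower in shTet1, by −0.93 to −0.32, and the difference was −0.88 in replicates 1 and 2 and −0.41 in replicates 3 to 5.

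Trim28 itself was at 15.16, 15.34, 14.61, 14.01 and 15.15 for shScr, 14.42, 14.70, 14.58, 14.16 and 15.02 for shTet1 and 14.80, 14.95, 14.84, 13.98 and 14.94 for shTet2. The groups overlapped over almost their whole range, and replicate 4, rich in receptor reads in every group, was the lowest library of each. Its difference in shTet1 was −0.28 ± 0.24 (SE, adjusted p = 0.724, exact permutation p = 0.325), with 4 of 5 pairs lower. Replicates 1 and 2 gave −0.69 and replicates 3 to 5 0.00. Setdb1 was at 11.94, 12.51, 12.25, 11.89 and 12.46 for shScr, 11.95, 12.02, 12.31, 12.04 and 12.41 for shTet1 and 11.93, 12.20, 12.49, 11.88 and 12.46 for shTet2. No group stood apart for this methyltransferase, and its difference in shTet1 was −0.06 ± 0.16 (SE, adjusted p = 0.929, exact permutation p = 0.722). Atf7ip, which shields SETDB1 in the nucleus, had a difference of −0.20 ± 0.22 (SE, adjusted p = 0.791), so that all 4 members of the group had a mean below that of shScr, with 1 of them past the paired test.

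Rif1 showed the second lowest difference of the 36 (chr2:51928357-51977903, plus strand). Rif1 was at 15.87, 16.47, 16.26, 16.21 and 16.10 for shScr, 15.15, 15.31, 15.90, 15.83 and 15.98 for shTet1 and 15.43, 15.75, 16.17, 16.02 and 16.22 for shTet2. The shTet1 values of replicates 1 and 2 were below every other library of any group, whereas those of replicates 3 to 5 ran from below the shScr values into their range. The difference was −0.55 ± 0.19 (SE, adjusted p = 0.233, exact permutation p = 0.0238), a fold of 0.682. The paired fit gave an adjusted p of 0.0232, with 5 of 5 pairs lower by −1.16 to −0.13. That call was lost without shScr replicate 1, shTet1 replicate 1 or shTet1 replicate 2, with an adjusted p of at most 0.101. The difference was −0.94 in replicates 1 and 2 and −0.29 in replicates 3 to 5. Hells had a difference of −0.23 ± 0.21 (SE, adjusted p = 0.739), Yy1 of −0.17 ± 0.14 (SE, adjusted p = 0.714) and Smchd1, a structural protein of the inactive X chromosome, of 0.17 ± 0.11 (SE, adjusted p = 0.61).

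Mphosph8 had the highest difference of the 36 in shTet1. It encodes MPP8, the HUSH subunit that reads methylated H3K9 (chr14:57287085-57316267, plus strand). Mphosph8 was at 11.54, 11.68, 12.06, 12.17 and 12.28 for shScr, 12.07, 12.18, 12.25, 12.33 and 12.79 for shTet1 and 11.85, 11.80, 12.10, 12.37 and 12.58 for shTet2. Each shTet1 library was above the shScr library of the same number, although the groups overlapped. The difference was 0.38 ± 0.18 (SE, adjusted p = 0.434, exact permutation p = 0.0952), a fold of 1.3. Pairing gave an adjusted p of 0.0293, with 5 of 5 pairs higher by 0.16 to 0.53, and centring each library on its median gave 0.0736. The paired call held in 4 of 10 fits that left out 1 library (adjusted p 0.0244 to 0.119) and was lost without shScr replicate 1, 2, 4 or 5 or shTet1 replicate 1 or 2. Replicates 1 and 2 gave 0.51 and replicates 3 to 5 0.29. Exons of Gm16973 on the other strand cover the 10.7% of its exonic bases given above. The HUSH subunit Pphln1 (0.16 ± 0.19 (SE, adjusted p = 0.816)) and the HUSH partner Morc2a (0.15 ± 0.13 (SE, adjusted p = 0.724)) had positive differences that did not pass, and Morc3 had one of −0.26 ± 0.15 (SE, adjusted p = 0.536).

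**Figure D3:**
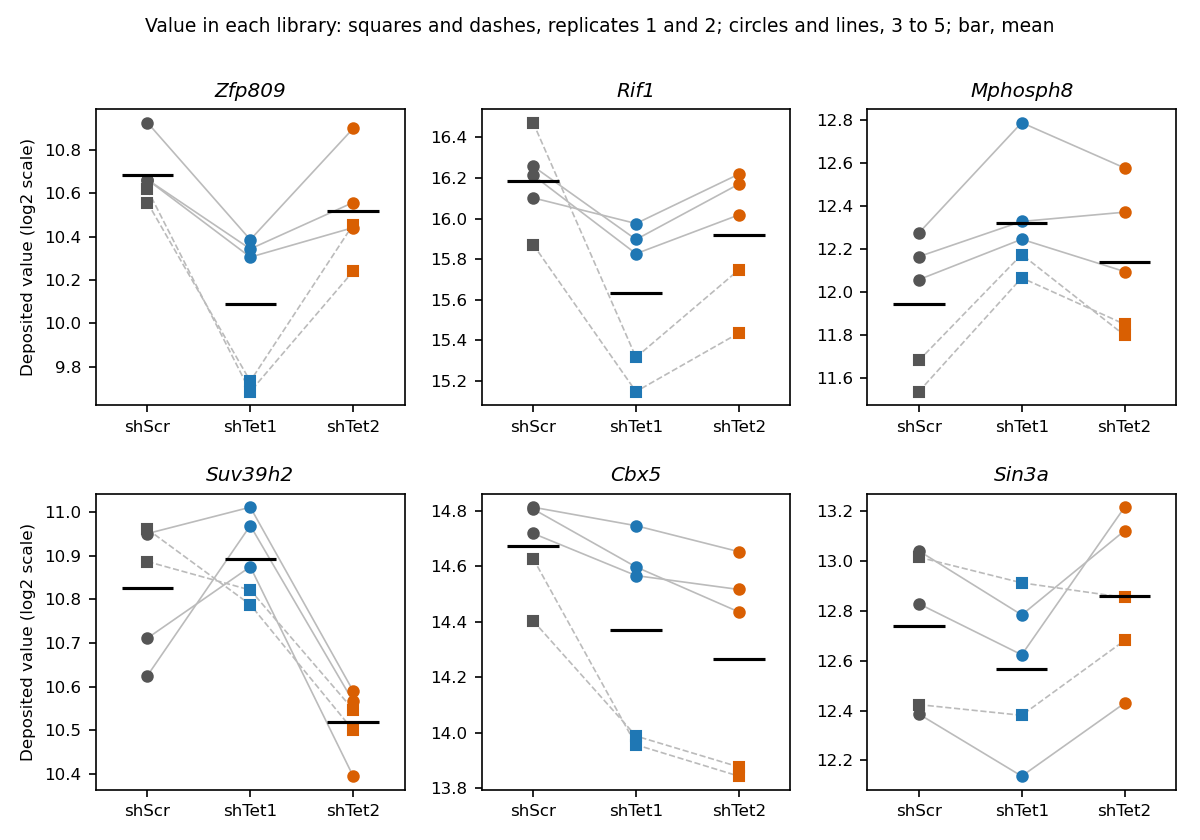
Deposited value (log2 scale) of 6 silencers in each of the 15 libraries by group, with lines between libraries of the same replicate number and a black bar at each group mean. Zfp809 values of shTet1 sit at or below 10.39 and those of shScr at or above 10.56, and Suv39h2 values of shTet2 sit at or below 10.59 and those of both other groups at or above 10.63.

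The SUV39 and HP1 genes were little separated in shTet1. Suv39h1, which trimethylates H3K9 at pericentric satellites, was at 9.42, 9.63, 8.77, 8.60 and 8.91 for shScr, 9.46, 9.51, 9.02, 8.70 and 8.86 for shTet1 and 9.43, 9.36, 9.19, 8.80 and 9.22 for shTet2. Its libraries split by replicate number rather than by group, and the difference in shTet1 was 0.04 ± 0.21 (SE, adjusted p = 0.968, exact permutation p = 0.825). Suv39h2, its paralogue (chr2:3373087-3392303, minus strand), was at 10.89, 10.96, 10.95, 10.71 and 10.63 for shScr, 10.82, 10.79, 11.01, 10.88 and 10.97 for shTet1 and 10.55, 10.50, 10.59, 10.39 and 10.57 for shTet2. For Suv39h2 the shTet1 libraries lay within or just above the shScr range, with a difference of 0.07 ± 0.11 (SE, adjusted p = 0.884, exact permutation p = 0.421). Cbx5 (chr15:103021975-103070247, minus strand) was at 14.40, 14.63, 14.81, 14.81 and 14.72 for shScr, 13.99, 13.96, 14.75, 14.60 and 14.57 for shTet1 and 13.88, 13.84, 14.65, 14.44 and 14.52 for shTet2. All 5 of its pairs were lower in shTet1, but the difference of −0.30 ± 0.19 (SE, adjusted p = 0.584, exact permutation p = 0.151) did not pass with pairing either (adjusted p = 0.0979). Cbx1 and Cbx3 differed by 0.07 ± 0.15 (SE, adjusted p = 0.92) and 0.11 ± 0.14 (SE, adjusted p = 0.833). The G9a group had small differences, −0.06 for Ehmt1, 0.04 for Ehmt2 and −0.01 for Wiz.

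CAF-1 and its relatives had differences on either side of 0. Chaf1a, the large CAF-1 subunit whose loss derepresses retroviruses, was at 11.21, 11.48, 11.16, 10.83 and 11.31 for shScr, 10.89, 11.28, 11.14, 10.95 and 11.43 for shTet1 and 11.01, 11.05, 11.20, 10.88 and 11.17 for shTet2. Its groups overlapped, with a difference of −0.05 ± 0.14 (SE, adjusted p = 0.934, exact permutation p = 0.73) in shTet1. Chaf1b, the middle subunit, was at 10.38, 10.31, 10.21, 10.28 and 10.21 for shScr, 10.67, 10.94, 10.19, 10.62 and 10.21 for shTet1 and 10.56, 10.61, 9.78, 10.33 and 9.96 for shTet2. Its shScr libraries lay close together, within 10.21 to 10.38, and the difference in shTet1 was 0.25 ± 0.17 (SE, adjusted p = 0.641, exact permutation p = 0.151). For the histone chaperones Asf1a and Asf1b the differences were −0.18 ± 0.22 (SE, adjusted p = 0.818) and 0.05 ± 0.21 (SE, adjusted p = 0.961).

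Of the 8 SIN3, HDAC and CoREST genes, 7 had a mean below that of shScr in shTet1 (7 with each library centred on its median and 4 with quantile normalisation), and none passed. Sin3a, the scaffold that TET1 has been found with, was at 13.01, 12.42, 12.83, 12.39 and 13.04 for shScr, 12.91, 12.38, 12.62, 12.14 and 12.78 for shTet1 and 12.85, 12.68, 13.21, 12.43 and 13.12 for shTet2. Sin3a was lower in 5 of 5 shTet1 pairs by −0.26 to −0.04, and the difference of −0.17 ± 0.19 (SE, adjusted p = 0.79, exact permutation p = 0.413) was smaller than the spread between libraries of a group. Hdac1 was at 10.59, 10.99, 10.85, 10.89 and 11.25 for shScr, 10.47, 10.91, 11.02, 10.81 and 11.07 for shTet1 and 9.97, 10.36, 11.37, 10.63 and 10.93 for shTet2. Its shTet1 libraries lay within the shScr range but for 1 just below (−0.06 ± 0.21 (SE, adjusted p = 0.954, exact permutation p = 0.73)). Hdac2, the more abundant deacetylase here, was at 12.66, 13.22, 13.12, 13.02 and 13.07 for shScr, 12.94, 12.73, 12.88, 12.98 and 13.31 for shTet1 and 13.06, 13.00, 12.89, 13.05 and 13.33 for shTet2. No group stood apart for it (−0.05 ± 0.14 (SE, adjusted p = 0.94, exact permutation p = 0.714)). Kdm1a encodes LSD1, the H3K4 demethylase of CoREST, and was at 13.53, 13.67, 13.48, 12.89 and 13.18 for shScr, 13.44, 13.43, 13.21, 12.88 and 13.14 for shTet1 and 13.71, 13.61, 13.53, 12.95 and 13.22 for shTet2. It was lower in 5 of 5 pairs in shTet1, by −0.27 to −0.01 (−0.13 ± 0.17 (SE, adjusted p = 0.85, exact permutation p = 0.444)). Rcor1 was at 9.16, 8.65, 8.52, 8.69 and 9.06 for shScr, 9.59, 9.35, 8.91, 8.61 and 8.91 for shTet1 and 8.91, 8.86, 9.33, 8.30 and 8.94 for shTet2. Rcor1 was the 1 gene of this group with a mean above shScr (0.26 ± 0.21 (SE, adjusted p = 0.695, exact permutation p = 0.278)). Sin3b, Rcor2 and the CoREST-associated Zmym2 had differences of −0.10, −0.02 and −0.01.

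The histone H3.3 chaperones Atrx and Daxx, which deposit H3.3 at repeats, differed by 0.07 ± 0.16 (SE, adjusted p = 0.922) and −0.17 ± 0.16 (SE, adjusted p = 0.75) in shTet1. Sumo2, whose product is attached to KAP1, and the SUMO ligase Pias4 differed by 0.03 ± 0.15 (SE, adjusted p = 0.974) and −0.08 ± 0.14 (SE, adjusted p = 0.886).

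In shTet2 against shScr, again none of the 36 passed an adjusted p of 0.05, beside 0.39% of all genes (76 genes). The unadjusted threshold was reached by 2 members, Suv39h2 and Cbx5, both lower, or 5.56% of the list beside 11.6% of all genes. The replicate numbers did not meet the rule for pairing in this comparison. The median difference over the 36 was −0.03, beside 0.04 over all genes. It was −0.14 in replicates 1 and 2 and 0.02 in replicates 3 to 5. Intervals lay within 1 on the log2 scale for all 36, from −0.81 to 0.82, and within 0.5 for 19. Centring each library on its median lowers every shTet2 difference by 0.11, and the signs of small differences turn with it. This comparison shares its control libraries with the one above.

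The shTet2 libraries of Suv39h2, given above, lay within 10.39 to 10.59 and were all below the lowest shScr value of 10.63. This was the 1 member of 36 whose groups did not overlap here (2.7% of all genes), with a difference of −0.31 ± 0.11 (SE, adjusted p = 0.251, exact permutation p = 0.00794) and a fold of 0.808. Replicates 1 and 2 gave −0.40 and replicates 3 to 5 −0.25. Its within-group SD of 0.11 was the lowest of the 36, whose median was 0.27, beside 0.29 over all genes tested. Cbx5 had a difference of −0.41 ± 0.19 (SE, adjusted p = 0.413, exact permutation p = 0.0635). Its replicates 1 and 2 were the lowest in every group, and it differed by −0.66 in those and by −0.24 in replicates 3 to 5. Suv39h1 had a difference of 0.14 ± 0.21 (SE, adjusted p = 0.876, exact permutation p = 0.516).

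Zfp809 was less separated in shTet2 than in shTet1, with a difference of −0.17 ± 0.16 (SE, adjusted p = 0.774, exact permutation p = 0.238). Trim28 differed by −0.15 ± 0.24 (SE, adjusted p = 0.882, exact permutation p = 0.571), where leaving out shTet2 replicate 4 turned the sign (0.03), and Setdb1 by −0.02 ± 0.16 (SE, adjusted p = 0.981, exact permutation p = 0.794). Rif1 differed by −0.27 ± 0.19 (SE, adjusted p = 0.659, exact permutation p = 0.175), and Mphosph8 by 0.20 ± 0.18 (SE, adjusted p = 0.764, exact permutation p = 0.373). The highest difference over all libraries was that of Asf1b, a chaperone made in dividing cells, which was at 9.15, 7.68, 8.61, 9.03 and 8.79 for shScr, 8.84, 8.54, 8.60, 8.66 and 8.89 for shTet1 and 9.21, 8.80, 9.11, 9.02 and 9.04 for shTet2. The library shScr replicate 2 lay below all others, and the other shScr libraries overlapped those of shTet2 (0.38 ± 0.21 (SE, adjusted p = 0.519, exact permutation p = 0.167)). Without that library the difference of Asf1b was 0.14 and ranked 4 among the 36.

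Among the SIN3 and CoREST genes, 6 of 8 had a mean above shScr in shTet2, but 2 of 8 once each library was centred on its median, and none passed. Sin3b was at 10.63, 11.02, 10.81, 10.90 and 10.88 for shScr, 10.55, 10.63, 10.80, 10.81 and 10.95 for shTet1 and 10.96, 11.03, 10.88, 11.04 and 11.08 for shTet2. Its shTet2 libraries sat in the upper part of the shScr range and slightly above it, with a difference of 0.15 ± 0.12 (SE, adjusted p = 0.696, exact permutation p = 0.0635). Sin3a differed by 0.12 ± 0.19 (SE, adjusted p = 0.876, exact permutation p = 0.524), Kdm1a by 0.05 ± 0.17 (SE, adjusted p = 0.953, exact permutation p = 0.762) and Hdac2 by 0.05 ± 0.14 (SE, adjusted p = 0.949, exact permutation p = 0.73). Hdac1 differed by −0.26 ± 0.21 (SE, adjusted p = 0.709, exact permutation p = 0.341), with the larger part in replicates 1 and 2 (−0.62) and the smaller in replicates 3 to 5 (−0.02). Chaf1a differed by −0.13 ± 0.14 (SE, adjusted p = 0.797, exact permutation p = 0.317). The other members ran from −0.25 (Ehmt2) to 0.07 (Pias4).

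The direct comparison of shTet2 with shTet1 asks whether the depletions differed from each other. Without pairing none of the 36 passed, beside 4.24% of all genes (827 genes). At an unadjusted p under 0.05 there were 4 members, or 11.1% of the list beside 15.7% of all genes. Zfp809 and Sin3b were higher in shTet2, and Suv39h2 and Smchd1 lower. The replicate numbers of these groups met the rule for pairing, and with the block 2 members passed, Zfp809 and Suv39h2, which is 5.56% of the list, beside 11.2% of all genes. The median difference over the 36 was 0.03, beside 0.01 over all genes, and the intervals lay within 1 for all 36 and within 0.5 for 14.

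Suv39h2 was lower in all 5 shTet2 libraries than in any shTet1 library, by −0.37 ± 0.11 (SE, adjusted p = 0.0642, exact permutation p = 0.00794), a fold of 0.772. The paired adjusted p was 0.0158, with 5 of 5 pairs lower by −0.48 to −0.27. It held in 6 of 10 paired fits that left out 1 library (0.0210 to 0.0560), lost without shTet1 replicate 4 or 5 or shTet2 replicate 2 or 4, and over 21 settings without pairing the adjusted p ranged from 0.0367 to 0.340. Zfp809 was higher in shTet2 in 5 of 5 pairs by 0.14 to 0.72, with overlapping groups and a difference of 0.43 ± 0.16 (SE, adjusted p = 0.175, exact permutation p = 0.0556). Pairing gave 0.017, and 0.0531 once libraries were also centred on their medians. That call held in 7 of 10 fits (0.0133 to 0.0670), lost without shTet1 replicate 1 or 2 or shTet2 replicate 2. Over the settings without pairing the adjusted p ran from 0.0444 to 0.380.

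Besides Suv39h2, Smchd1 was the 1 other member whose groups did not overlap, 2 of 36 or 5.56% beside 6.04% of all genes (−0.27 ± 0.11 (SE, adjusted p = 0.252, exact permutation p = 0.00794)), and its paired adjusted p was 0.0599. Sin3b was higher in 5 of 5 pairs (0.25 ± 0.12 (SE, adjusted p = 0.296, exact permutation p = 0.0159), with a paired adjusted p of 0.099), and Sin3a in 4 of 5 (0.29 ± 0.19 (SE, adjusted p = 0.508, exact permutation p = 0.183), with a paired one of 0.0655). Ehmt2 was at 11.76, 11.61, 11.20, 10.48 and 11.54 for shScr, 11.34, 11.52, 11.36, 11.15 and 11.39 for shTet1 and 11.29, 11.20, 11.03, 10.68 and 11.11 for shTet2. The G9a gene was lower in 5 of 5 pairs, while 1 low shScr library, replicate 4, widened the control range (−0.29 ± 0.19 (SE, adjusted p = 0.543, exact permutation p = 0.0238)). Chaf1b was lower in 5 of 5 pairs (−0.28 ± 0.17 (SE, adjusted p = 0.501, exact permutation p = 0.262)) and Asf1b higher in 5 of 5 (0.33 ± 0.21 (SE, adjusted p = 0.514, exact permutation p = 0.0238)). Kdm1a (0.18 ± 0.17 (SE, adjusted p = 0.716, exact permutation p = 0.317)) and Hdac2 (0.10 ± 0.14 (SE, adjusted p = 0.837, exact permutation p = 0.397)) were each higher in 5 of 5 pairs and did not pass with pairing. Trim28 (0.12 ± 0.24 (SE, adjusted p = 0.89, exact permutation p = 0.587)), Setdb1 (0.05 ± 0.16 (SE, adjusted p = 0.948, exact permutation p = 0.794)), Suv39h1 (0.09 ± 0.21 (SE, adjusted p = 0.909, exact permutation p = 0.627)), Hdac1 (−0.20 ± 0.21 (SE, adjusted p = 0.743, exact permutation p = 0.484)) and Chaf1a (−0.08 ± 0.14 (SE, adjusted p = 0.879, exact permutation p = 0.524)) did not separate.

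**Figure D4:**
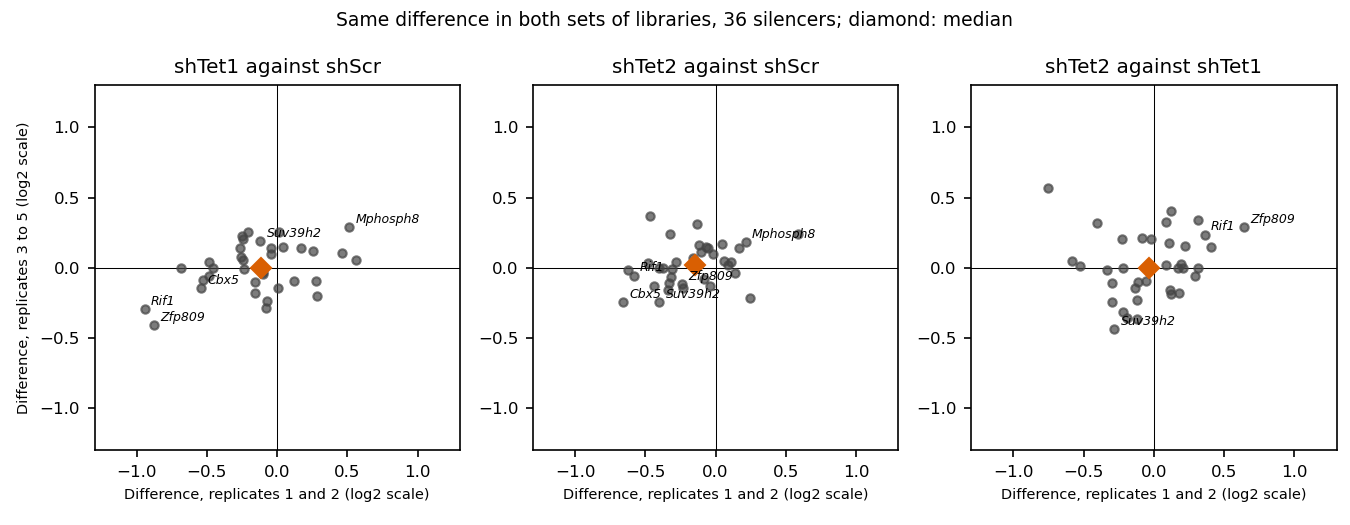
Difference of each silencer in replicates 3 to 5 (vertical) against that in replicates 1 and 2 (horizontal), both on the log2 scale, for 3 comparisons. The diamond is the median of the 36. Zfp809 and Rif1 lie low on both axes for shTet1 against shScr, whereas the median moves from −0.11 in replicates 1 and 2 to −0.00332 in replicates 3 to 5.

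Some silencers differed in the same direction between the sets of libraries in every group. Averaged over the groups, replicates 3 to 5 minus replicates 1 and 2 ran from −0.65 (Rcor2) to 0.53 (Cbx5). The median was 0.05, beside 0.03 over all genes tested. On that average 16 of the 36 were lower in replicates 3 to 5, as were 45.6% of all genes tested. Of the 36, 14 were higher and 8 lower in replicates 3 to 5 in all 3 groups. The share of all genes for these counts was not computed, and they are not read as a result about the list. Hells (0.52), Asf1a (0.50), Mphosph8 (0.47) and Hdac1 (0.43) followed Cbx5 at the upper end, and Suv39h1 (−0.57) and Kdm1a (−0.40) followed Rcor2 at the lower. Of the members singled out in shTet1, Zfp809 and Rif1 had a larger step in shTet1 (0.64 and 0.67) than in shScr (0.16 and 0.02).

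Genes that work with the silencers were followed as a list of 76, of which 75 were found and tested. In shTet1 against shScr none passed in limma without pairing (9 at an unadjusted p under 0.05, or 12% beside 11.8% of all genes) and 2 with it (2.67% beside 4.8% of all genes), the SUMO protease Senp2 (−0.42, adjusted p = 0.0189) and the H3K9 demethylase Kdm3a (−0.60, adjusted p = 0.0133), both lower. In shTet2 against shScr none passed without pairing (12 unadjusted, or 16% beside 11.6% of all genes). The replicate numbers there did not meet the rule for pairing. With the block 4 passed, all lower, or 5.33% beside 4.31% of all genes. Between shTet2 and shTet1, 3 were lower without pairing, or 4% beside 4.24% of all genes. These were Zmym3 (−0.70 ± 0.14, SE, adjusted p = 0.00575) and Phf21a (−0.66 ± 0.15, adjusted p = 0.0166), both of CoREST-type complexes, and the SUMO protease Senp5 (−0.76 ± 0.16, adjusted p = 0.00957). With pairing 10 passed, 3 higher (Senp2, Kdm3a and Morc4) and 7 lower, or 13.3% beside 11.2% of all genes. The lower genes were Zmym3, Phf21a, Senp5, Senp3, the NuRD subunit Mta2 and both subunits of the histone chaperone FACT, Ssrp1 (−0.76, adjusted p = 0.000110) and Supt16h (−0.33, adjusted p = 0.0250). The median of the 75 was −0.0014, −0.09 and −0.09 in the 3 comparisons, beside 0.01, 0.04 and 0.01 over all genes. Of the other KRAB zinc finger genes listed, 9 of 10 were tested and none passed without pairing or in a comparison that met the rule for it. With the block 1 of the 9 was lower in shTet2 against shScr (11.1%, beside 4.31% of all genes). Between the hairpins 5 of the 9 had an unadjusted p under 0.05 in limma with pairing (55.6%, beside 24.6% of all genes). No SIN3 subunit among 15 passed in any of the 3 comparisons, and none had an unadjusted p under 0.05 without pairing.

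Markers of another cell state, chosen with earlier results of these data known, differed between the groups. Of 10 genes of 2-cell-like cells, a rare ESC state that expresses MERVL, 6 were found, none of them at 0 in all libraries of a group. Their summed level was 508 to 728 RPM in shScr, 106 to 455 in shTet1 and 911 to 1851 in shTet2, without overlap. Between shTet2 and shTet1 all 6 were higher in shTet2 (adjusted p from 0.000293 to 0.0208; 4.24% of all genes passed), with 2.24 ± 0.31 for Zscan4c, whose near-identical copies make its count uncertain. Against shScr none passed without pairing. At an unadjusted p under 0.05 in limma there were 5 in shTet1 and 6 in shTet2 (83.3% and 100%, beside 11.8% and 11.6% of all genes). With pairing 5 were lower in shTet1 (83.3%, beside 4.8% of all genes). The 10 markers of primitive endoderm summed to 371 to 557 RPM in shScr, 349 to 491 in shTet1 and 343 to 475 in shTet2. In shTet2 against shScr their median difference was −0.64, with 6 of 10 at an unadjusted p under 0.05 in limma (60%, beside 11.6% of all genes) and none past adjustment. Between shTet2 and shTet1 it was −0.41, and with pairing Pdgfra (−0.59, adjusted p = 0.0178) and Dab2 (−0.79, adjusted p = 0.0353) were lower in shTet2 (20% of the 10, beside 11.2% of all genes). The 8 ESC markers summed to 3398 to 3596 RPM in shScr, 3635 to 4107 in shTet1 and 2872 to 3530 in shTet2, and between the hairpins Fgf4, a growth factor made by ESCs, was lower in shTet2 without pairing (−0.59 ± 0.13, SE, adjusted p = 0.0126). This is 12.5% of the 8, beside 4.24% of all genes. Of the 5 mesoderm and neural markers found, which summed to 6.44 to 19.7 RPM over all libraries, the mesoderm regulator Eomes was lower in shTet2 than in shTet1 (−0.94 ± 0.22, SE, adjusted p = 0.0185) and, with pairing, higher in shTet1 than in shScr (0.80, adjusted p = 0.0176). This is 20% of the 5 in each, beside 4.24% and 4.8% of all genes. The part of these cell states in the differences of Zfp809 and Suv39h2 was not tested.

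The repeat table was read for 28 classes that these factors are known to repress, adjusted over its 1187 tested classes. None of the 28 passed in shTet1 or in shTet2 against shScr, as for all classes (0%), with 3 and 2 at an unadjusted p under 0.05 in limma (10.7% and 7.14%, beside 0.842% and 1.26% of all classes). The 3 in shTet1 were MERVL-int and MT2_Mm, parts of the same element, and the LINE-1 class L1Md_A (−0.47 ± 0.21, SE), all lower. The LINE-1 classes L1Md_T (−0.54 ± 0.27) and L1Md_Gf (−0.47 ± 0.30) did not reach that threshold. The 2 in shTet2 were ETnERV-int (−0.36 ± 0.16) and MMETn-int (−0.34 ± 0.14), both lower. Between shTet2 and shTet1, 2 passed (7.14%), as did 0.253% of all classes. Both belong to MERVL. Its internal part MERVL-int was higher in shTet2 by 2.15 ± 0.38 (SE, adjusted p = 0.0145) and its LTR MT2_Mm by 1.99 ± 0.34 (adjusted p = 0.0145). In shTet1 their differences from shScr were −1.43 ± 0.38 and −1.28 ± 0.34 and did not pass, with or without pairing (adjusted p = 0.0683 for each when paired). The provirus classes that ZFP809 binds did not pass beside the lower Zfp809 of shTet1. MuLV-int differed from shScr by −0.26 ± 0.41 and the related LTR class RLTR4_Mm by −0.04 ± 0.26. MMVL30-int and RLTR6_Mm, also among the 28, differed by −0.06 ± 0.26 and −0.27 ± 0.31. RLTR6_Mm was higher in shTet2 than in shTet1 by 0.76 ± 0.31 (limma, unadjusted p = 0.0264, adjusted p = 0.999). In that comparison MuLV-int differed by 0.40, MMVL30-int by 0.28 and RLTR4_Mm by −0.10. IAPEz-int, a class held silent by KAP1 and SETDB1 in ESCs, differed by −0.10 ± 0.23 in shTet1 and −0.22 ± 0.23 in shTet2. The paper states that SUV39H also deposits H3K9me3 at L1s. In shTet2, where Suv39h2 was lower, L1Md_T differed from shScr by −0.28 ± 0.27, L1Md_A by −0.18 ± 0.21 and L1Md_Gf by −0.26 ± 0.30. The other LINE-1 classes read ran from −0.05 (L1Md_F) to 0.04 (L1Md_F3), and none passed. The major satellite GSAT_MM, a target of the SUV39 enzymes, had a within-group SD of 3.13 to 4.71, and its difference in shTet2 of 0.73 had an interval from −3.67 to 5.14. A change of the satellite was therefore not detectable in these libraries.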

How the data were processed

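RNA-seq libraries of 15 samples (5 each of shScr, shTet1 and shTet2) were grouped by their labels. Per the labels and the study's methods, the authors trimmed reads with Trim Galore 0.3.3, aligned them to mm9 with TopHat2 2.0.9, counted them per gene and per repeat class in Seqmonk and transformed them with DESeq2. The deposited gene and repeat tables hold variance-stabilised values on a log2 scale. The libraries were directional, but strand use in counting is not given in the sources used here. Undoing the transformation gave whole reads (within 0.1, up to 200 reads, 100% of values), from which depth and levels per kb (mm9 exons, GENCODE vM1) were computed. Fold changes are 2 to the power of the difference and understate changes of genes with few reads.

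Groups were compared with limma 3.58.1 (R 4.3.3; lmFit on all 15 libraries, eBayes with trend, two-sided, Benjamini-Hochberg over 19490 genes), and single members also with a two-sided exact permutation test over libraries. The fit was tested on simulated data. Same-numbered libraries were taken as paired where their deviations from the group means correlated above 0.1 in every pair. These correlations were 0.374 to 0.657 for shTet1 with shScr and 0.330 to 0.731 for shTet2 with shTet1, which were paired, and 0.00789 to 0.769 for shTet2 with shScr, which were not. The replicate block was fitted over all 15 libraries, and no paired fit used the compared groups alone. Members, related genes and markers were chosen with earlier results of these data known. Described in full were members that passed either fit, those with the 3 highest and 3 lowest differences per comparison, and 10 chosen for their roles (Trim28, Setdb1, Sin3a, Suv39h1, Suv39h2, Hdac1, Hdac2, Kdm1a, Chaf1a and Zfp809). Related genes were named where they passed without pairing or in a comparison that met the rule for it. Filters, scalings, voom on recovered reads, array weights, the pairing and leaving out each library were the alternatives. Chosen after seeing the data were pairing with centring, pairing with each library left out, and leaving out the 4 libraries rich in receptor reads.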

Additional observations from a re-analysis of the deposited data

Results flagged for a closer look

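Among the 108 groups of 5 libraries (36 silencers in 3 groups), 6 held a library whose gap to its neighbour was over 0.71 of the group's range. Chance gives about 1 in 20, or 5.4 such groups. The lowest shTet2 value of Trim28 was 13.98, in replicate 4. In the same group, the highest value of Atf7ip was 11.63 (replicate 3) and that of Morc3 13.59 (replicate 5). In shScr, the highest value of Zfp809 was 10.93 (replicate 3), that of Cbx3 11.92 (replicate 5) and that of Asf1a 11.50 (replicate 5). The effects of the 2 hairpins differed by the direct test with pairing for Zfp809 (0.43 higher in shTet2 than in shTet1, 5 of 5 pairs, adjusted p = 0.0170) and for Suv39h2 (−0.37, 5 of 5 pairs, adjusted p = 0.0158). In the fit without pairing the adjusted p was 0.175 for Zfp809 and 0.0642 for Suv39h2. A term for replicates 1 and 2 against 3 to 5 gave 0.0444 and 0.0391, and Suv39h2 also passed with array weights (0.0367) and the strict filter on low values (0.0455).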

How the results depend on the processing

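In the fit without pairing no silencer passed in any comparison. With the replicate number as a block, 3 passed for shTet1 against shScr (8.33% of the list, beside 4.8% of all genes). There were 1 for shTet2 against shScr (2.78% beside 4.31%) and 2 for shTet2 against shTet1 (5.56% beside 11.2%). The 1 for shTet2 against shScr was Cbx5 (−0.41, adjusted p = 0.0347). The numbers of those libraries did not meet the rule for pairing, and a correlation as low as 0.00789 was found for replicate 3. With the block and median centring the counts were 2, 2 and 2. No share over all genes is given for this and the settings that follow. Their counts are not read as results about the list. With the block and 1 library left out they were 1 to 3 for shTet1, up to 2 for shTet2 against shScr (1 without shScr replicate 3, 2 without shScr replicate 5 or shTet2 replicate 3, 0 otherwise) and 1 to 3 between the hairpins (0 without shTet2 replicate 2). A term for replicates 1 and 2 against 3 to 5 gave 1 member for shTet1 and 2 between the hairpins, and the strict filter and array weights gave 1 each between the hairpins. Fits on replicates 1 and 2 or 3 to 5 alone, the other scalings, voom, receptor share as a covariate and leaving out the 4 libraries rich in receptor reads gave 0. Tet1 in shTet1 and Tet2 in shTet2 passed in all 21 other settings without pairing and in all 10 paired fits that left out 1 library. Those settings do not include the fits on replicates 1 and 2 or 3 to 5 alone.

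No value whose sign turned passed. Over all 36, median centring turned 3 members in shTet1 against shScr, 11 in shTet2 against shScr and 4 between the hairpins. With centring or in either set of replicates alone, the 1 turned difference larger than its SE was that of Daxx in shTet1 (−0.17 ± 0.16, and 0.04 in replicates 3 to 5). Turns among the members chosen for their roles follow. In shTet1 against shScr, median centring gave −0.0091 for Suv39h1 (also with the block) and quantile normalisation 0.017 for Hdac2. Replicates 1 and 2 alone gave −0.041 for Suv39h1 and −0.12 for Suv39h2, and replicates 3 to 5 alone 0.052 for Setdb1 and 0.080 for Chaf1a. Leaving out 1 library, the ranges were −0.14 to 0.0096 for Setdb1, −0.073 to 0.18 for Suv39h1, −0.14 to 0.039 for Hdac1, −0.14 to 0.0098 for Hdac2 and −0.15 to 0.018 for Chaf1a. In shTet2 against shScr, centring gave −0.062 for Hdac2 and −0.053 for Kdm1a (also with the block), quantile normalisation 0.072 and the receptor covariate 0.0013 for Setdb1, replicates 1 and 2 alone −0.13 for Suv39h1 and replicates 3 to 5 alone 0.072 for Setdb1. Leaving out 1 library gave −0.36 to 0.029 for Trim28, −0.10 to 0.060 for Setdb1, −0.043 to 0.097 for Hdac2 and −0.061 to 0.17 for Kdm1a. Between the hairpins, centring gave −0.011 for Setdb1 (also with the block), replicates 1 and 2 alone −0.087 for Suv39h1, and replicates 3 to 5 alone −0.0011 for Trim28 and 0.012 for Hdac1. Leaving out 1 library gave −0.029 to 0.12 for Setdb1 and −0.0100 to 0.19 for Suv39h1. The cause was not tested. The median difference over the 36 moved by less than the SD of 0.11 between replicates of the library median in each setting. With 5 libraries a group, differences of −0.60 ± 0.16 (SE) for Zfp809 and −0.55 ± 0.19 for Rif1 did not pass in shTet1 without pairing. The adjusted p in limma was 0.133 and 0.233. In that comparison, smaller differences with a similar or wider SE were therefore not detectable without pairing.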
